A study of Homo sapiens with 6 samples.

Results

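The 8 genes described here encode membrane proteins of endoplasmic reticulum-associated degradation (ERAD): ERLIN1, ERLIN2, RNF170, TMUB1, SYVN1, SEL1L, DERL1 and DERL2. They were chosen by gene symbol from the 46427 genes of the expression table. ERLIN2 was picked because it fell in every cell line after MALAT1 knockdown, and the other 7 were added for their function around it. The change of ERLIN2 after knockdown is therefore a description and carries no test.

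RNA-seq was performed on 3 established human non-small cell lung cancer (NSCLC) lines, H460, H1299 and A549, with 1 control library and 1 si-MALAT1 library per line. MALAT1 is a long nuclear noncoding RNA that is abundant in many tumours, and si-MALAT1 is a small interfering RNA against it. The controls are labelled as non-treated, whereas the methods describe both negative control and si-Control cells, so the effect of transfection itself cannot be told apart from that of the knockdown. The time between transfection and RNA collection is not given in the sources used here. With 1 library per line and condition, no test was possible within a line, and the lines served as the replicates (n = 3).

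Total reads assigned to genes ranged from 42506818 to 68515992 per library. MALAT1 reads went from 231045 to 43858 in H460, from 407551 to 47935 in H1299 cells and from 93747 to 14447 in A549, which left 20.1%, 12.9% and 13.9% of the control level. Of the 6 epithelial markers, KRT8 and KRT18 stood at 122.5 TPM or more in all 6 libraries, whereas EPCAM was at most 0.776 TPM in H460 and H1299, KRT19 at most 0.256 TPM in H1299, and CDH1 (E-cadherin) was at least 27.8 TPM (a unit that corrects for depth and transcript length) in A549 and at most 0.047 TPM in the other lines. In A549, KRT7, KRT8 and KRT18 changed by -1.04, -1.16 and -1.23 on the log2 scale after si-MALAT1. The other 3 epithelial markers were higher there, with EPCAM at 1.16 and CDH1 at 0.51. The part of these changes in the results below was not tested. Of the 4 lung lineage markers, NAPSA had reads in all 6 libraries and reached 1.79 TPM, SFTPC and NKX2-1 reached at most 0.291 and 0.271 TPM, and SFTPB was at 0 reads throughout. The mesenchymal markers VIM, CDH2, FN1 and ZEB1 together stood at 691 to 2203 TPM per library. The immune and endothelial markers PTPRC, CD3E, MS4A1 and CDH5 were at 0 reads in every library, PECAM1 reached at most 0.022 TPM, and CD14 ranged from 0.024 to 9.25 TPM.

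ERAD removes misfolded or surplus proteins from the endoplasmic reticulum (ER). Substrates are recognised in the lumen or membrane, moved back through the membrane, ubiquitinated by membrane ligases and extracted by the p97 ATPase for the proteasome. The erlins, ERLIN1 and ERLIN2, are related SPFH domain proteins that assemble into large ring-like complexes facing the ER lumen. These complexes bind activated inositol trisphosphate receptors and recruit the ligase RNF170 to them. They also take part in sterol-regulated protein turnover, and the ubiquitin-like membrane protein TMUB1 associates with erlins and with ER ligases. SYVN1 (HRD1) is the best studied ERAD ligase, SEL1L is its stabilising partner, and the derlins DERL1 and DERL2 are rhomboid-like proteins of the channel through which substrates leave the ER.

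ERLIN2 lies at chr8:37736627-37758422 on the plus strand (GRCh38). It had 4444 reads in the H460 control and 1898 in H460 si-MALAT1, 3516 and 1284 in H1299 cells, and 3630 and 1529 in A549. All 3 si-MALAT1 libraries were below all 3 control libraries, in reads and after scaling for depth. In such bulk libraries, less RNA per cell and fewer cells with the RNA cannot be told apart. Scaled by the median-ratio (RLE) size factors used throughout, ERLIN2 went from 4109 to 1857 in H460, from 2786 to 1114 in H1299 cells and from 4779 to 1821 in A549.

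The remaining ERLIN2 level was 45.2% of control in H460, 40.0% in H1299 cells and 38.1% in A549. On the log2 scale the changes were -1.15 (95% counting interval -1.22 to -1.07), -1.32 (-1.42 to -1.23) and -1.39 (-1.48 to -1.31), with a mean of -1.29 ± 0.13 (SD, n = 3), a 2.44-fold lower level. These intervals are exact Clopper-Pearson intervals on the split of the reads between the control and si-MALAT1 libraries and cover counting error only. Ranked by the smallest fall over the 3 lines among 12306 protein-coding genes with a mean of at least 50 reads, ERLIN2 stood at place 13. The rule that picked ERLIN2 had no stated threshold, and its neighbours in this order were GPN1, whose smallest fall was -1.15, and POLR2H, at -1.14. A pair of antisense transcripts, LOC102723701 and LOC728024, overlap ERLIN2 and had at most 14 and 78 reads.

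**Figure D1:**
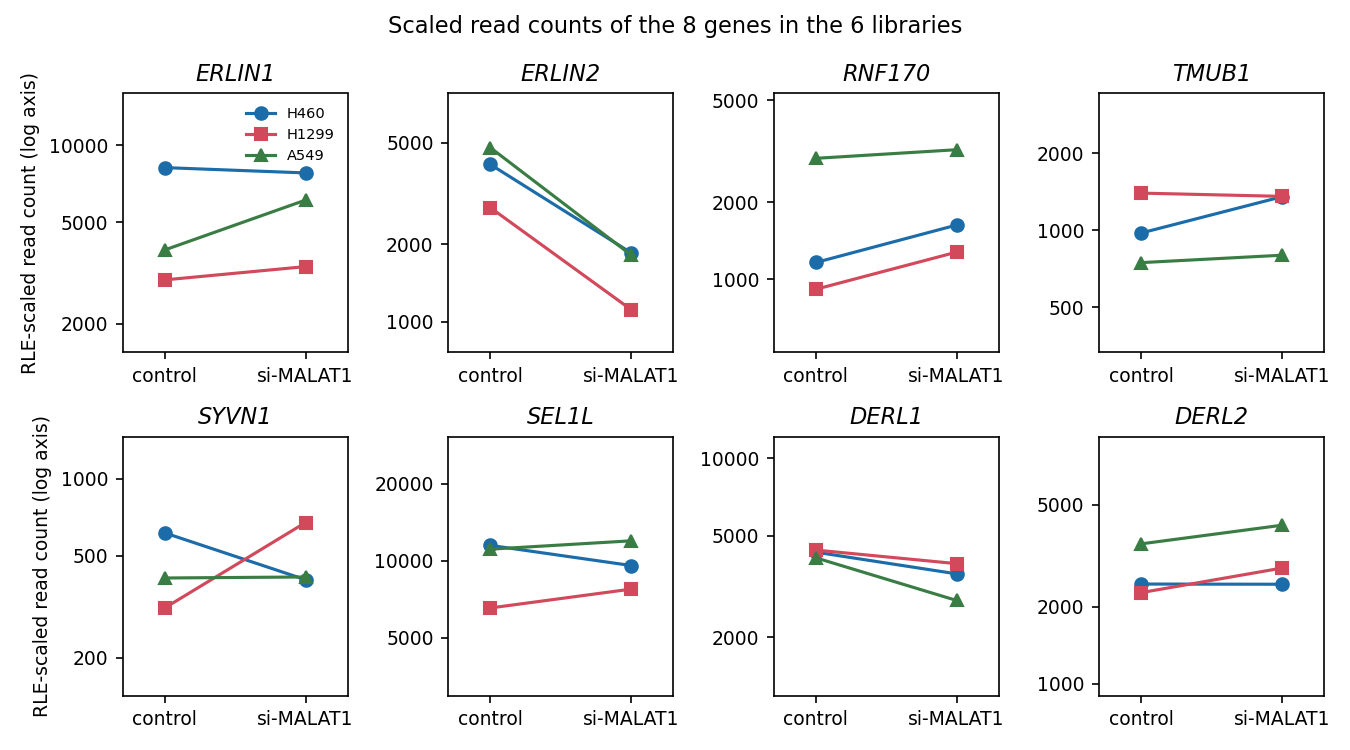
RLE-scaled read counts (log axis) of the 8 genes in the control and si-MALAT1 library of H460, H1299 and A549, with a line joining the libraries of each cell line. ERLIN2 dropped in all 3 lines, from between 2786 and 4779 to between 1114 and 1857, whereas ERLIN1, SYVN1 and SEL1L moved in different directions in different lines.

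Past a fold change of 1.5 in either direction, 2 of the 8 genes were lower in H460 (ERLIN2 and SYVN1), where 10.3% of the 17834 genes with reads in all 6 libraries were lower, and 0 were higher (9.5% of all genes). In H1299, ERLIN2 was lower (11.4% of all genes) and SYVN1 was higher (11.7%). In A549, ERLIN2 was lower (11.4%) and ERLIN1 was higher (11.5%). ERLIN2 was the 1 gene of the 8 that was lower in all 3 lines, as were 1.28% of all genes, and 0 of the 8 were higher in all 3 (1.19%). The ERLIN2 entries are fixed by the way it was picked, and the counts of the others are close to the background.

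In edgeR's quasi-likelihood test with cell line as a block, adjusted over 19122 genes, none of the other 7 genes passed an adjusted p of 0.05. The test has 2 residual degrees of freedom and called 1 gene in all (0.00523%), MALAT1. At an unadjusted p under 0.05, edgeR gave 2 of the 7, RNF170 and DERL1, beside 2863 of all 19122 genes, and DESeq2 called 0 of the 7 and 1161 genes in all. The values of the other genes below are therefore given as levels per line with no general direction.

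ERLIN1, the partner of ERLIN2, did not follow it. ERLIN1 (chr10:100150094-100186029, minus strand) had 8827 reads in the H460 control and 7953 in H460 si-MALAT1, 3753 and 3862 in H1299 cells, and 2958 and 5119 in A549. The log2 changes were -0.07 (-0.11 to -0.02) in H460, 0.17 (0.11 to 0.24) in H1299 and 0.65 (0.58 to 0.71) in A549. The lines thus ranged from slightly lower to 1.57-fold higher, and the edgeR estimate was 0.23 (adjusted p = 0.558).

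Per unit of transcript length, ERLIN1 was the more abundant erlin in all 6 libraries. ERLIN1 stood at 47.1 TPM in the H460 control and 41.0 in H460 si-MALAT1, 20.2 and 23.8 in H1299 cells, and 26.5 and 41.0 in A549. ERLIN2 stood at 14.1 and 6.05 TPM in H460, 11.7 and 5.12 in H1299 cells, and 20.8 and 9.13 in A549. The share of ERLIN2 in the summed erlin TPM went from 23.1% to 12.9% in H460, from 36.8% to 17.7% in H1299 cells and from 43.9% to 18.2% in A549, so that the control lines differed more widely in this share than the si-MALAT1 lines. The summed erlin level itself went from 61.3 to 47.0 TPM in H460, from 31.9 to 28.9 in H1299 cells and from 47.3 to 50.1 in A549. The sum was lower in H460 and H1299 and higher in A549, the line in which ERLIN1 was higher past 1.5-fold. In H460 the log2(TPM + 1) scale shifted the median gene by -0.08 from the scaled counts. There ERLIN1 changed by -0.20, against -0.07 in scaled counts, so part of the H460 fall in the sum lies in the scale.

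**Figure D2:**
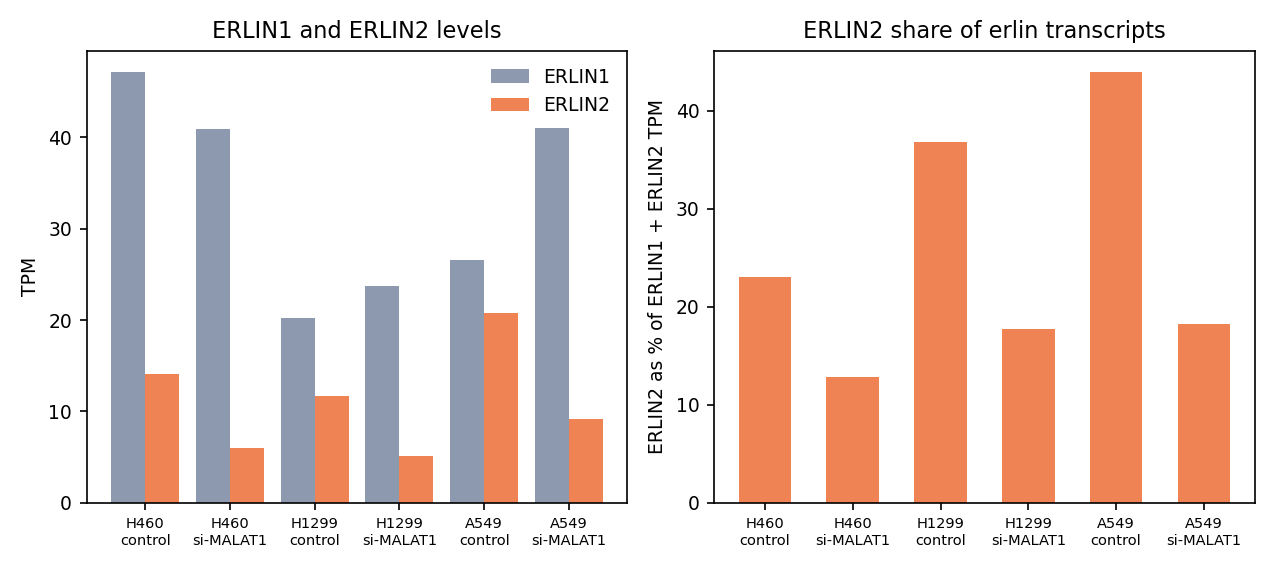
Left, TPM of ERLIN1 and ERLIN2 in each of the 6 libraries. Right, ERLIN2 as a percentage of the summed ERLIN1 and ERLIN2 TPM, which lay between 23.1% and 43.9% in the controls and between 12.9% and 18.2% in the si-MALAT1 libraries.

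RNF170, the ligase that the erlins recruit, was higher in each si-MALAT1 library than in its control. Its reads were 1256 and 1662 in H460, 1152 and 1469 in H1299 cells, and 2251 and 2689 in A549. The log2 changes were 0.49 (0.38 to 0.59), 0.48 (0.37 to 0.59) and 0.11 (0.03 to 0.19), opposite in sign to those of ERLIN2 in every line. The edgeR estimate was 0.34 with an unadjusted p of 0.0342 and an adjusted p of 0.292, so the call was not made. RNF170 (chr8:42849637-42897294, minus strand) overlaps HOOK3 on the other strand, and HOOK3 changed by -0.08, 0.67 and -0.34. The library kit keeps the strand, but whether counting used it is not given in the sources used here.

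TMUB1, which links erlins to other ER ligases, differed between the lines. Its reads were 1054 and 1380 in H460, 1760 and 1561 in H1299 cells, and 567 and 670 in A549. The log2 changes were 0.47 (0.35 to 0.59), -0.04 (-0.14 to 0.06) and 0.10 (-0.07 to 0.26), and the edgeR estimate was 0.16 (adjusted p = 0.662). The counting intervals of H1299 and A549 included no change, and the H1299 value turned to 0.06 on the log2(TPM + 1) scale. TMUB1 lies at chr7:151081085-151083493 on the minus strand.

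SYVN1, the ligase at the centre of the HRD1 complex, gave the widest spread of the 8 genes. It had 664 reads in the H460 control and 412 in H460 si-MALAT1, 395 and 777 in H1299 cells, and 311 and 347 in A549. The log2 changes were -0.61 (-0.79 to -0.43), 1.10 (0.93 to 1.29) and 0.01 (-0.21 to 0.24). SYVN1 thus moved past 1.5-fold in opposite directions in H460 and H1299 and stayed near its control in A549, and its mean of 0.17 had an SD of 0.87 (n = 3; edgeR adjusted p = 0.876). It had the fewest reads of the 8 genes in all 6 libraries and stood at 2.23 to 5.08 TPM. SYVN1 (chr11:65127279-65135178, minus strand) ends 362.6 kb from MALAT1 on the same chromosome and overlaps MRPL49 on the other strand, which changed by 0.27, 0.19 and 0.17.

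SEL1L, the partner that stabilises SYVN1, was the most read gene of the 8 in all 6 libraries. Its reads were 12436 and 9807 in H460, 8266 and 8942 in H1299 cells, and 8442 and 10061 in A549. The log2 changes of -0.26 (-0.30 to -0.22), 0.24 (0.20 to 0.29) and 0.11 (0.07 to 0.15) had the same signs as those of SYVN1 in H460 and H1299 but were smaller. In A549 SYVN1 was too close to 0 to give a sign. The mean was 0.03 ± 0.26 (SD, n = 3; edgeR adjusted p = 0.976). SEL1L exceeded SYVN1 in TPM by 7.28-fold in the H460 control and 9.29-fold in H460 si-MALAT1, 8.15-fold and 4.49-fold in H1299, and 10.6-fold and 11.3-fold in A549. SEL1L lies at chr14:81471547-81533861 on the minus strand.

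The derlins differed from each other. DERL1 had 4658 and 3622 reads in H460, 5539 and 4477 in H1299 cells, and 3109 and 2343 in A549, and was lower after si-MALAT1 in each line. Its log2 changes were -0.28 (-0.34 to -0.22), -0.18 (-0.23 to -0.12) and -0.55 (-0.63 to -0.48), none past 1.5-fold, with an edgeR estimate of -0.35, an unadjusted p of 0.0245 and an adjusted p of 0.259. DERL2 had 2648 and 2498 reads in H460, 2861 and 3258 in H1299 cells, and 2670 and 3490 in A549. Its log2 changes were 0.00 (-0.08 to 0.08), 0.32 (0.25 to 0.39) and 0.24 (0.17 to 0.31), and the edgeR estimate was 0.17 (adjusted p = 0.557). In TPM, the share of DERL1 in the summed DERL1 and DERL2 level went from 70.1% to 65.9% in H460, from 72.0% to 64.6% in H1299 cells and from 60.7% to 47.0% in A549, so DERL2 exceeded DERL1 in A549 si-MALAT1 alone. DERL1 (chr8:123013164-123042423, minus strand) overlaps TBC1D31 on the other strand, which changed by 0.19, -0.42 and 0.16, and DERL2 lies at chr17:5471254-5486225 on the minus strand.

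**Figure D3:**
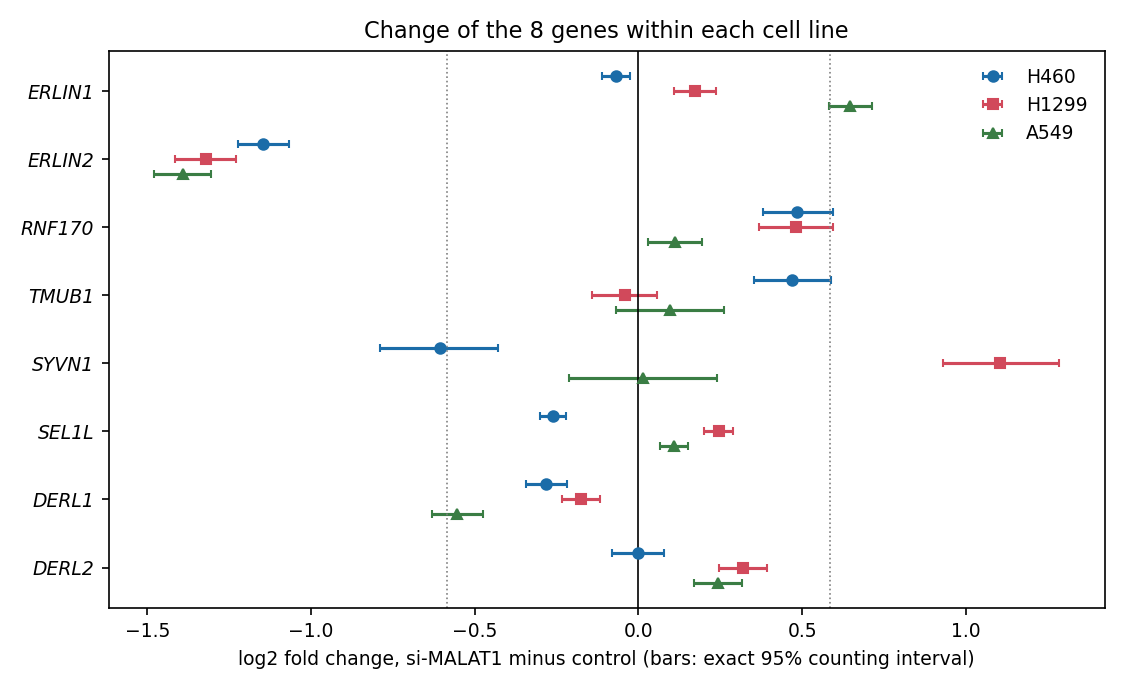
Log2 fold change (si-MALAT1 minus control) of each of the 8 genes in H460, H1299 and A549, with exact 95% counting intervals as bars and dotted lines at a fold change of 1.5. ERLIN2 lies between -1.39 and -1.15 in the 3 lines, whereas SYVN1 spans -0.61 to 1.10.

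The levels of the 8 genes also differed between the cell lines, a comparison that was not used to choose them. For ERLIN2 it is not independent of the choice. An even fall over the lines also narrows the spread against which this fit tests its line differences. The contrasts came from the same edgeR fit with treatment as a term, over 2 libraries per line that differ in treatment and are not replicate cultures. Between H1299 and H460, 3 of the 8 genes were called, where 52.6% of all genes were. ERLIN1 was lower in H1299 by a log2 difference of -1.36 (edgeR adjusted p = 0.00195), ERLIN2 by -0.66 (adjusted p = 0.00727) and SEL1L by -0.57 (adjusted p = 0.0289). The other 5 genes had adjusted p from 0.0946 (RNF170, -0.36) to 0.847 (SYVN1, -0.10).

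Between A549 and H460, 4 of the 8 genes were called, beside 38.2% of all genes. RNF170 was higher in A549 by 1.17 (edgeR adjusted p = 0.00229) and DERL2 by 0.64 (adjusted p = 0.0147). ERLIN1 was lower by -0.71 (adjusted p = 0.0313) and TMUB1 by -0.58 (adjusted p = 0.0411), both of which missed the threshold without the filter on low counts (adjusted p = 0.0560 and 0.0672). ERLIN2 did not pass, with a difference of 0.09 (adjusted p = 0.613).

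Between A549 and H1299, 6 of the 8 genes were called, beside 48.9% of all genes. RNF170 was higher in A549 by 1.53 (edgeR adjusted p = 0.000632), ERLIN2 by 0.76 (adjusted p = 0.00485), SEL1L by 0.70 (adjusted p = 0.0152), ERLIN1 by 0.65 (adjusted p = 0.0330) and DERL2 by 0.60 (adjusted p = 0.0139). TMUB1 was lower in A549 by -0.83 (adjusted p = 0.00932). DERL1 and SYVN1 passed in none of the 3 contrasts. For ERLIN2, H1299 was thus the low line, and H460 and A549 did not differ beyond the spread. For ERLIN1 the order from high to low was H460, A549, H1299, with each step past the threshold in this fit, and for RNF170 A549 was above both other lines. Without the treatment term the ERLIN2 differences of H1299 from H460 and A549 no longer passed (adjusted p = 0.436 and 0.348), although their sizes stayed at -0.63 for H1299 minus H460 and 0.77 for A549 minus H1299. The ERLIN1 difference between A549 and H1299 no longer passed without the filter on low counts (0.63, adjusted p = 0.0665) or without the treatment term (0.67, adjusted p = 0.0506).

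The genes whose pattern over the 6 libraries was most like that of ERLIN2 were sought among 15902 genes with a mean of at least 50 reads, by the root mean square difference of log2 values centred on each gene's mean. They were LOC643576 (0.127), LOC642969 (0.141), PGAM1 (0.156), PLGRKT (0.171) and RRAS2 (0.179). PGAM1 is a glycolytic enzyme, PLGRKT a cell surface plasminogen receptor and RRAS2 a RAS-related GTPase, whereas both LOC genes are annotated as PGAM1 pseudogenes, so their reads may not be separable from those of PGAM1. PGAM1 changed by -1.07, -1.27 and -1.68 in H460, H1299 and A549, PLGRKT by -0.90, -1.48 and -1.26, and RRAS2 by -1.13, -1.42 and -1.78. The genes most like ERLIN1 were ASTN2 (0.0439), IBA57 (0.0842), SH2D4A (0.0893), ZNF213 (0.110) and GSTO1 (0.113). ASTN2 changed by -0.13, 0.22 and 0.69, close to ERLIN1 in each line.

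The deposited annotation holds 23 other genes within 500000 bases on either side of ERLIN2, of which 10 had reads in all 6 libraries. Of these, 0 were lower in all 3 lines, beside 3354 of all 17834 genes, so that this count alone says little about the neighbours. The nearest downstream gene, PLPBP, a pyridoxal phosphate binding protein, changed by 0.13, -0.02 and 0.00. The values of ADGRA2 were 0.98, -0.23 and 0.11, those of BRF2 -0.09, 0.54 and 0.13, and those of RAB11FIP1 -0.26, 0.25 and -0.29. EIF4EBP1, the translation repressor, gave 0.08, -0.54 and -0.11, and LSM1 gave 0.11, -0.40 and -0.46. ASH2L (0.10, 0.46, 0.26), BAG4 (0.32, 0.18, 0.52) and DDHD2 (0.31, 0.48, 0.41) were higher in each line, and ZNF703 (-0.10, 0.13, 0.19) had a mean of 33.8 reads.

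**Figure D4:**
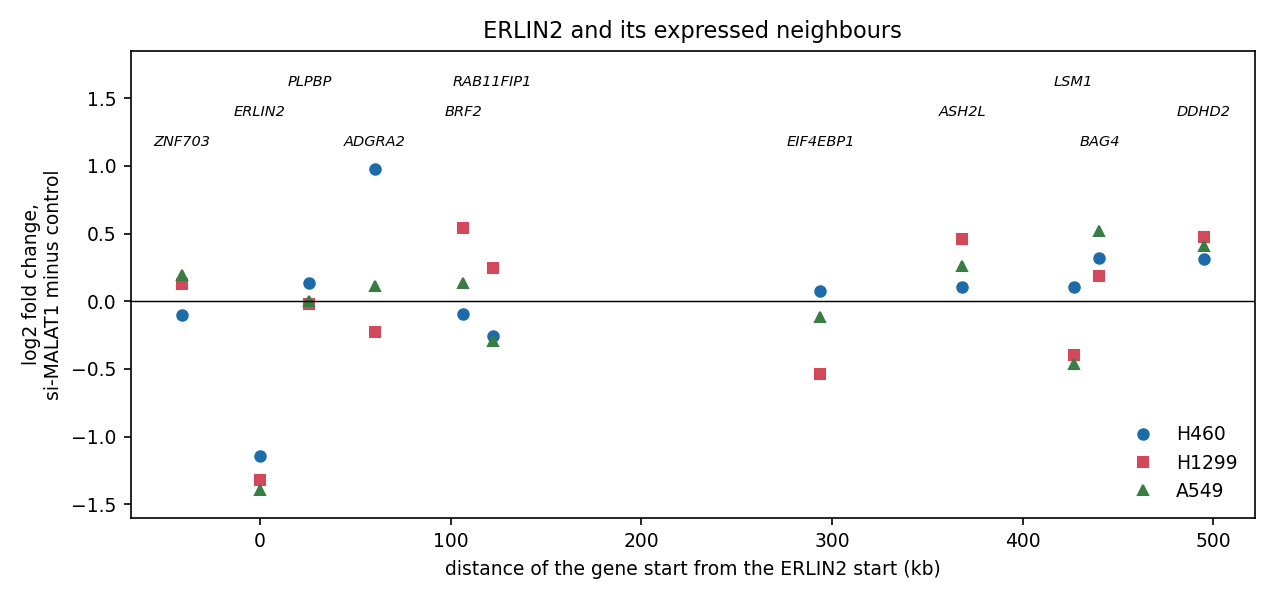
Log2 fold change (si-MALAT1 minus control) in each cell line of ERLIN2 and its 10 expressed neighbours, against the distance of each gene's start from the start of ERLIN2 in kilobases. ERLIN2 lies at or below -1.15 in all 3 lines, and the lowest value of any neighbour is -0.54.

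Beyond the 8 genes, 50 further ERAD genes were taken in 4 lists by function, of which 49 had reads in all libraries and DERL3 did not. Their median log2 change was -0.06 in H460, 0.06 in H1299 cells and -0.09 in A549, beside 0.02, 0.02 and 0.01 over all genes. Past 1.5-fold in H460, 1 was higher and 3 lower, beside 9.5% and 10.3% of all 17834 genes. In H1299, 4 were higher and 3 lower (11.7% and 11.4%), and in A549 5 were higher and 6 lower (11.5% and 11.4%). The edgeR test called 0 of the 50, with 6 higher and 9 lower at an unadjusted p under 0.05, and DESeq2 called 5 higher and 6 lower. Over all 19122 genes, 1411 were higher and 1452 lower at an unadjusted p under 0.05, and DESeq2 called 569 higher and 592 lower. RNF185 was the 1 gene lower past 1.5-fold in all 3 lines (1.28% of all genes) and YOD1 the 1 gene higher (1.19%).

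Among the other parts of the HRD1 complex, UBE2J1, the ubiquitin-conjugating enzyme that serves SYVN1, changed by 0.50, 0.52 and 0.86 in H460, H1299 and A549 (edgeR adjusted p = 0.115). It was called by DESeq2 (adjusted p = 0.000712). The lectin ERLEC1 changed by 0.18, 0.28 and 0.25, and HERPUD1, which organises the complex, by -0.52, 0.26 and 0.01. Over the 7 genes of this list with reads in all libraries, the medians were 0.00, 0.26 and 0.07.

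The 13 other ER membrane ligases and ubiquitin-like proteins had medians of -0.07, -0.13 and -0.25, and 7 of them were lower in each line, as were 3354 of all 17834 genes. RNF185, a ligase of membrane protein ERAD, changed by -0.76, -1.05 and -0.98 (edgeR adjusted p = 0.0734). DESeq2 called RNF185 (adjusted p = 8.22e-07) and RNF145 (adjusted p = 0.0195). RNF145, a sterol-responsive ligase, changed by -0.22, -0.50 and -0.74 (adjusted p = 0.181), TMEM259 (membralin) by -0.20, -0.29 and -0.51, and TMUB2, the paralog of TMUB1, by -0.22, -0.15 and -0.34. MARCHF6, another sterol pathway ligase, was the most variable of the list at -0.19, 0.39 and -0.09.

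The 17 genes of p97 and the cytosolic steps had medians of 0.04, 0.21 and 0.00. The deubiquitinase YOD1 changed by 0.73, 1.76 and 1.57 (edgeR adjusted p = 0.0857) and the deubiquitinase ATXN3 by 0.37, 0.73 and 0.68. SVIP, a small p97 binding inhibitor of ERAD, changed by 0.44, 0.47 and 0.69. UBXN8, which tethers p97 to the ER membrane, went the other way at -0.58, -0.72 and -0.87 (adjusted p = 0.0994). These 4 genes were among those DESeq2 called, and edgeR called none of them.

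The 12 luminal recognition genes had medians of -0.23, -0.02 and -0.13. DNAJB9, a co-chaperone of the ER chaperone HSPA5, changed by 0.52, 1.11 and 0.81 (edgeR adjusted p = 0.107), and the mannosidase MAN1B1 by -0.39, -0.44 and -0.71. DESeq2 called DNAJB9 (adjusted p = 0.000464) and MAN1B1 (adjusted p = 0.00254). CALR changed by 0.11 in each line and HSP90B1 by -0.39, -0.10 and -0.11. HSPA5 itself was the most variable of the list at -0.83, 0.48 and 0.24, with the same signs as SEL1L.

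Genes for erlin clients and sterol sensing had medians of -0.11, 0.28 and 0.11 over 9 genes. INSIG1, a sterol-dependent ER anchor protein, changed by 0.68, 0.42 and 0.54 (edgeR adjusted p = 0.120). INSIG2 changed by 0.11, 0.17 and 0.05, and the inositol trisphosphate receptor gene ITPR3 by -0.55, 0.28 and -0.18. In edgeR 0 of the 9 genes passed, with 2 at an unadjusted p under 0.05, and DESeq2 called 2, both higher.

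Of the other SPFH domain genes, relatives of the erlins, 7 of 9 had reads in all libraries, with medians of 0.08, -0.09 and -0.30. FLOT1 changed by -0.13, -0.09 and -0.36, STOML2 by -0.08, -0.48 and -0.21, and STOM by 0.10, -0.01 and -0.54. None of the 7 reached 1.5-fold in any line, and edgeR and DESeq2 each called 0, with 0 at an unadjusted p under 0.05 in edgeR. The 12 genes of the unfolded protein response, the programme that raises many ERAD genes under ER stress, had medians of -0.32, -0.07 and 0.06. In this list ATF4 changed by -0.17, -0.60 and -0.84, MANF by -0.44, -0.18 and -0.09, EIF2AK3 by 0.18, 0.16 and 0.09, and XBP1, the most variable, by -0.53, 0.11 and 0.63. For this list edgeR called 0 and gave 1 at an unadjusted p under 0.05, and DESeq2 called 1, which was lower.

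**Figure D5:**
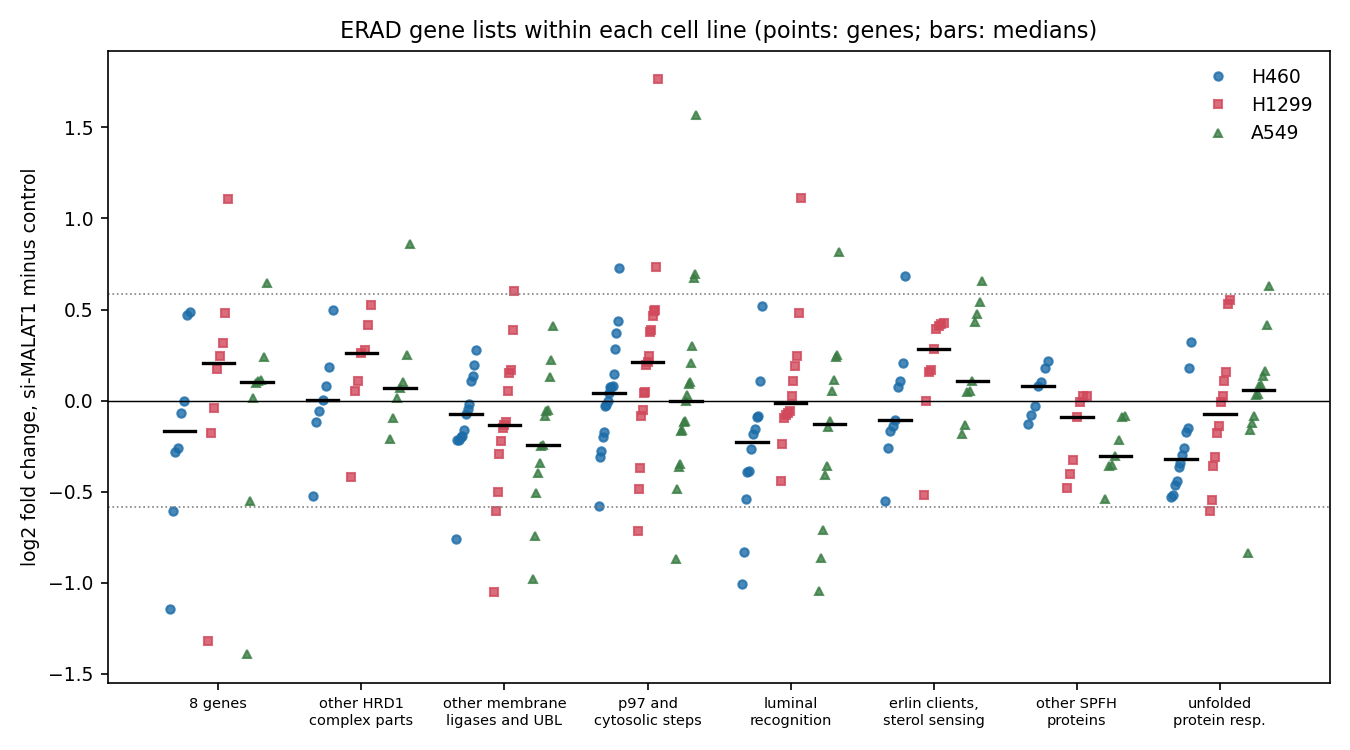
Log2 fold change (si-MALAT1 minus control) of the 8 genes and of 7 related gene lists in each cell line, with 1 point per gene, black bars at the medians and dotted lines at a fold change of 1.5. The list medians lie between -0.32 and 0.28, and the 3 lowest points of the first group in H460, H1299 and A549 are ERLIN2.

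Earlier results of these data gave the 7-letter words TGAATCA and ATGAATC as common in the 3' untranslated regions (UTRs) of genes that fell. Each gene was searched on the transcript strand in its longest annotated 3' UTR, and the words overlap where they form the 8-letter word ATGAATCA. One or both words occurred in 18.67% of 13277 genes with a 3' UTR and a mean of at least 50 reads, and the 8-letter word occurred in 4.09%. Of the 8 genes, 3 held a word. ERLIN2 held the 8-letter word, RNF170 held ATGAATC and DERL1 held TGAATCA, whereas ERLIN1, TMUB1, SYVN1, SEL1L and DERL2 held neither. The isoforms differed. All 7 coding transcripts of ERLIN2 held a word, but those with a UTR of 947 bases held ATGAATC without the 8-letter word, and the RNF170 transcript with a UTR of 1154 bases held TGAATCA in place of ATGAATC. Of the 8 genes, those with a word did not share a direction, since ERLIN2 and DERL1 were lower and RNF170 higher in each line.

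Of the 50 further ERAD genes, 7 held a word and 2 of these, RNF185 and UBXN8, held the 8-letter word. Among these 7 genes, 4 were lower in each line. That held for 14 of the 49 with reads in all libraries and 3354 of all 17834 genes. Among the 57 genes of both sets with reads in all libraries, the 3 with the 8-letter word, ERLIN2, RNF185 and UBXN8, were also the 3 with the largest fall in their least affected line, at -1.15, -0.76 and -0.58. The next gene, MAN1B1, stood at -0.39 and held neither word. Both the count and the order were seen after the values were known, and the words came from these libraries, so both are descriptions. A match to these letters is not evidence of a site.

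The stretches around the words are printed 5' to 3' on the transcript strand from the GRCh38 genome, in lower case with the word in capitals. They are shown for RNF185 and RNF145, ERAD ligases that were lower in each line, and for the protein-coding genes most like ERLIN2. Also shown are FAM8A1, an ERAD gene lower in no line, and EDEM3, lower in each line but never past 1.5-fold. MARCHF6 and DNAJC10, ERAD genes with a word and mixed signs over the lines, are not shown. The stretches of ERLIN2, RNF170, DERL1 and UBXN8, which also held a word, are not shown either.
RNF185 (word at chr22:31206566-31206573, plus strand): gggtaggaaaATGAATCAtttggactctt
RNF145 (word at chr5:159157786-159157792, minus strand): attcttgcaacTGAATCAaaacagtgtta
FAM8A1 (word at chr6:17609147-17609153, plus strand): tttcagtgcccTGAATCAaactataaatg
EDEM3 (word at chr1:184692938-184692944, minus strand): acattttctgtTGAATCAtggtttttgtt
PGAM1 (word at chr10:97433331-97433337, plus strand): tcactgatttcTGAATCAtgttctagttg
PLGRKT (word at chr9:5358188-5358194, minus strand): aattattgactTGAATCAtggtttttaca
RRAS2 (word at chr11:14279044-14279051, minus strand): tttaatagagATGAATCAgttttggaatc
Of these, RNF185 and RRAS2 held the 8-letter word. FAM8A1, a cofactor of the HRD1 complex, changed by 0.00, 0.42 and 0.10 in H460, H1299 and A549, and EDEM3, a mannosidase of luminal recognition, by -0.54, -0.06 and -0.36.

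Promoter sequences of RefSeq (GRCh38.p14), which span 250 bases before to 50 bases after a gene's start, were matched for 4 of the 8 genes: TMUB1, SYVN1, SEL1L and DERL2. The letters searched on both strands were those of the ER stress element (CCAAT, any 9 bases, then CCACG), of ER stress element II (ATTGGNCCACG) and of the core of the unfolded protein response element (TGACGTG). The 4 promoters held none of them, in a table in which 0.0806%, 0.0549% and 2.0% of 27305 promoters did, and no match says only that these letters are not in this window.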

How the data were processed

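RNA-seq of H460, H1299 and A549 cells, 1 control and 1 si-MALAT1 library per line, was analysed from the gene table that the authors deposited. According to the methods, rRNA-depleted stranded libraries were sequenced paired-end, trimmed and aligned to hg38. The submitters' processing notes name HISAT2 2.1.0, StringTie 1.3.4b, Trimmomatic and bcl2fastq 2.20.0, and the methods name another StringTie release. The deposited table holds raw read counts per gene, FPKM and TPM values, both corrected for depth and length, made by the authors, and 18 columns of samples outside the 6 libraries were not used. The deposited gene annotation, a coordinate file, gave positions and 3' UTRs on GRCh38.

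The 8 genes, the gene lists and the UTR words were chosen with earlier results of these data known. Counts were tested with edgeR 4.0.16 (R 4.3.3; TMM scaling, filterByExpr, quasi-likelihood F-test, cell line as block, 2 residual degrees of freedom) with Benjamini-Hochberg adjustment over 19122 genes and a threshold of 0.05, and with DESeq2 1.42.0 as an alternative. The edgeR test was checked on simulated data. Within a line, log2(RLE-scaled count + 1) of si-MALAT1 minus control was taken over 17834 genes with reads in all 6 libraries, with no test. Alternatives were other scalings, pseudocounts and filters, no block, no treatment term and leaving out a cell line. Depth was 42506818 to 68515992 reads per library. The lists name at most 4 genes each, those with the same sign in 3 lines and the largest smallest change, plus the most variable 1. FAM8A1 and EDEM3 were named after their values were seen, and 1 gene that the rule names is not reported here.

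Because nothing shows that libraries of a line came from separate cultures of the same condition, p-values measure only the spread between these libraries.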

Additional observations from a re-analysis of the deposited data

Results flagged for a closer look

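For 3 of the 8 genes, some lines moved in opposite directions after si-MALAT1, with counting intervals that did not include 0. With 1 library per line and condition, none of these differences was tested. The log2 change of SYVN1 was 1.71 higher in H1299 (1.10) than in H460 (-0.61). The log2 change of ERLIN1 was 0.72 higher in A549 (0.65) than in H460 (-0.07). The log2 change of SEL1L was 0.51 higher in H1299 (0.24) than in H460 (-0.26).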

How the results depend on the processing

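ERLIN2 was lower in each line under every scaling, pseudocount and filter tried, between -1.16 and -0.95 in H460, -1.34 and -1.06 in H1299 cells, and -1.41 and -1.05 in A549. None of the other 7 genes was called for si-MALAT1 under any alternative, and the fit with no replicate block changed no call among them. Over all genes, the count called (1) was 1161 with DESeq2, 0 without the filter on low counts, 0 with no replicate block, and 0 to 163 when a cell line was left out, with 163 without H460. Called differences between A549 and H460 went from 4 genes to 2 without the filter on low counts and to 2 without the treatment term, losing ERLIN1 and TMUB1. SEL1L between H1299 and H460 was no longer called without A549 (adjusted p = 0.0606). Genes lower past 1.5-fold in H460 went from 2 to 1 with log2(TPM + 1) and to 1 with log2(FPKM + 1), losing SYVN1. No called direction reversed. The causes were not tested. Depth limits SYVN1 and TMUB1 most, which had as few as 311 and 567 reads.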
